A study of Homo sapiens with 40 samples.

Results

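The dexamethasone (dex) response of A549 cells depleted of CCAR1 was compared with that of A549 cells depleted of CCAR2. A549 is an established human lung carcinoma line. The comparison used 16 of the 40 arrays of the series, chosen by their titles: 4 with siCCAR1 in ethanol, 4 with siCCAR1 in 100 nM dex, 4 with siCCAR2 in ethanol and 4 with siCCAR2 in 100 nM dex. Dex was given for 6 h. The titles of the ethanol arrays carry 0 h, whereas the protocol describes ethanol for the same 6 h. All 4 groups shared the line, the transfection with an siRNA and the hormone-free medium before treatment, and no array with nonspecific siRNA (siNS) entered the test. For each gene the quantity tested was the dex response (dex minus ethanol, log2) in siCCAR1 cells minus the dex response in siCCAR2 cells, so that a negative difference marks a smaller rise, or a larger fall, with CCAR1 depleted. Each response rested on 4 replicate numbers, and the single siRNA label per target does not say how many sequences it held.

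Dex binds the glucocorticoid receptor (GR, gene NR3C1), which then enters the nucleus, binds DNA at glucocorticoid response elements and recruits coregulators that raise or lower transcription of nearby genes. In lung epithelial cells GR raises genes of feedback, metabolism and ion transport, and lowers cytokine and other inflammatory genes. CCAR1 and CCAR2 are paralogous nuclear proteins. CCAR1 binds the Mediator complex and acts as a coactivator of nuclear receptors, and CCAR2, also known as DBC1, is known as an inhibitor of the deacetylase SIRT1 and as a nuclear receptor coregulator.

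The 16 arrays correlated with r of 0.979 to 0.993 within groups and 0.969 to 0.989 between groups over all probes, and the 4 arrays per group limit the precision. The labels do not say that replicates were separate cultures, so p-values measure the spread between arrays, which may be partly technical. Levels are given as deposited log2 intensities in the order of replicates 1 to 4. A level under 5 is called near background here, because values of the arrays were most often 4.35, and a fold that starts or ends there is limited by background. Of 12 markers of A549 and lung epithelium with a probe, 8 had a group mean above 5, whereas the type II and airway markers NKX2-1, SFTPA1, SFTPB and SFTPC did not. None of 8 endothelial markers, 2 of 8 leukocyte markers (CD14 and CD68, with PTPRC near background) and 3 of 9 fibroblast markers (COL1A1, LUM and THY1) did. Fewer cells and less RNA per cell cannot be told apart in these bulk samples.

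The targeted transcripts were examined first. CCAR1 read 5.24, 5.09, 5.35 and 4.89 in siCCAR1 ethanol and 4.56, 4.64, 4.62 and 4.66 in siCCAR1 dex. It read 6.12, 6.30, 5.90 and 5.77 in siCCAR2 ethanol and 5.77, 5.29, 5.25 and 5.36 in siCCAR2 dex. In each treatment all siCCAR1 arrays lay below all siCCAR2 arrays, with ethanol by −0.88 and with dex by −0.79 (adjusted p = 0.000239 and 0.000534), on a probe that reached background in siCCAR1 dex. CCAR1 itself fell with dex in both depletions, by 0.52 and 0.61 on the log2 scale (adjusted p = 0.0272 and 0.00841), and the 2 falls differed by 0.08 ± 0.20 (SE; adjusted p = 0.989).

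CCAR2 read 9.22, 9.04, 8.75 and 9.13 in siCCAR1 ethanol and 9.08, 8.95, 8.98 and 8.60 in siCCAR1 dex. It read 7.11, 6.68, 6.34 and 6.86 in siCCAR2 ethanol and 6.68, 6.63, 6.63 and 6.40 in siCCAR2 dex. The 2 depletions did not overlap in either treatment, and siCCAR1 cells held more CCAR2 mRNA by 2.28 in ethanol and 2.32 in dex (adjusted p = 9.18e-08 and 5.31e-08). CCAR2 did not pass the test for dex in either depletion (−0.13 and −0.16). NR3C1, which encodes GR, responded to dex by −0.48 ± 0.17 in siCCAR1 and −0.05 ± 0.17 in siCCAR2 cells, neither called, and its difference of −0.42 (95% interval −0.94 to 0.09) had an adjusted p of 0.921.

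**Figure D1:**
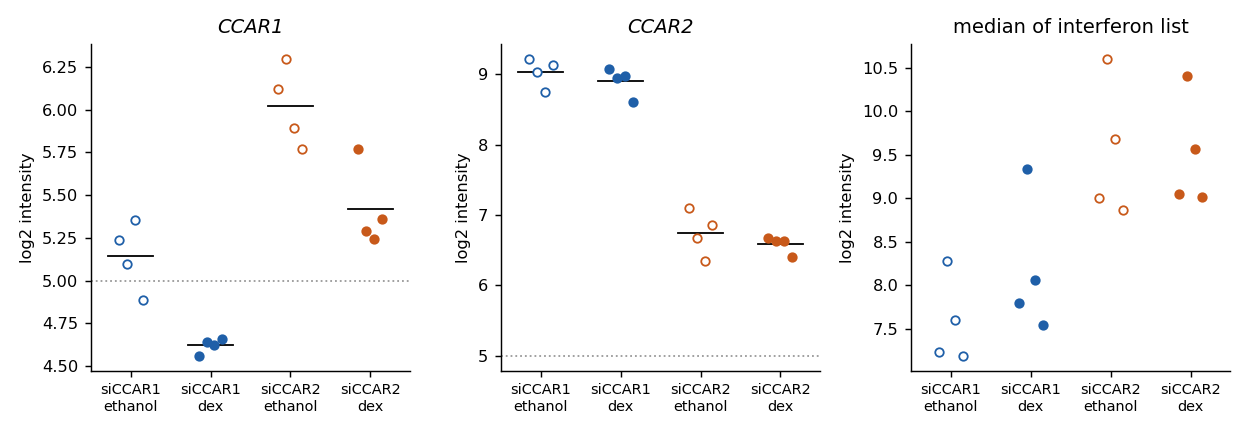
Log2 intensity of CCAR1 and CCAR2, and the median log2 intensity of 38 interferon-stimulated genes, on each of the 16 arrays (open points ethanol, filled points dex, bars the group means where drawn, dotted line the background level of 5). CCAR1 is lowest in siCCAR1 dex, CCAR2 lies between 6.34 and 7.11 in siCCAR2 cells, and in each group the highest interferon median is that of replicate 2.

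Most of the dex response was measured in both depletions. In siCCAR1 cells 755 of 10053 genes were called at an adjusted p under 0.05 (7.51%), of which 427 rose (4.25%) and 328 fell (3.26%). In siCCAR2 cells 937 were called (9.32%), of which 621 rose (6.18%) and 316 fell (3.14%). Of these, 318 genes rose in both, which is 74.5% of the siCCAR1 rises and 51.2% of the siCCAR2 rises, and 170 fell in both, which is 51.8% and 53.8% of the falls. CEND1, named for its part in neuronal cell cycle exit, was the 1 gene called in opposite directions: it fell by 0.45 in siCCAR1 cells and rose by 0.44 in siCCAR2 cells (adjusted p = 0.0333 and 0.032). Of its group means 2 were near background, and its difference of −0.88 ± 0.17 was not called (adjusted p = 0.0766). Across all genes the 2 responses, which share no arrays, had a Pearson correlation of 0.735, given as a description only. A gene called in 1 depletion is not thereby shown to differ between them.

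The test of the difference itself called 5 of 10053 genes (0.0497%), 1 of them higher in siCCAR1 cells (0.00995%) and 4 lower (0.0398%). They were TUBA3E, RRAD, CDH16 and KCNV1 with a more negative response, and ARL14 with a more positive one. At an unadjusted p under 0.05 there were 608 genes (6.05%), 200 higher (1.99%) and 408 lower (4.06%). The median standard error of the difference was 0.212, its 95% interval reached 0.446 to either side in the median gene, and it lay within −1 to 1 for 8970 genes. Of the 31 genes whose measured difference was at least 1 in size, 5 were called. With replicates blocked within each siRNA, which the pairing of the replicate numbers allows, 6 genes were called (0.0597%): TUBA3E, RRAD and ARL14 stayed, CDH16 and KCNV1 did not (adjusted p = 0.0604 and 0.0769), and FOS, CRYAB and PDGFA were added. The same fit called 1072 genes (10.7%) for dex in siCCAR1 and 1281 (12.7%) in siCCAR2 cells. Without siCCAR2 dex replicate 1 the unblocked count was 15, and it was 3 without any 1 of 8 arrays: the 4 of siCCAR1 ethanol, siCCAR2 ethanol replicates 2 and 4, and siCCAR2 dex replicates 3 and 4.

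TUBA3E, an alpha-tubulin gene, read 4.27, 4.47, 4.69 and 4.31 in siCCAR1 ethanol and 4.30, 5.10, 4.74 and 4.54 in siCCAR1 dex. It read 4.51, 4.28, 4.32 and 4.34 in siCCAR2 ethanol and 6.84, 7.13, 7.09 and 6.94 in siCCAR2 dex. The 4 siCCAR2 dex arrays stood far above the other 12, which overlapped near background. TUBA3E thus rose by 2.64 ± 0.15 (6.22-fold) in siCCAR2 cells (adjusted p = 3.91e-09), while its response in siCCAR1 cells was 0.24 ± 0.15 and not called. The difference was −2.40 ± 0.21 (95% interval −2.84 to −1.96, adjusted p = 1.68e-05). In siNS cells, outside the comparison, the response was 1.37, between the 2 depletions. The near-identical genes TUBA3C and TUBA3D had differences of −0.94 (adjusted p = 0.163) and −0.95 (adjusted p = 0.442), and probes of this family may share transcripts, so the tubulin copy behind the signal is uncertain.

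The promoter of TUBA3E is shown because it belongs to the gene with the smallest p for the difference. The 250 bases before the RefSeq start lie at chr2:130198440-130198689 on the minus strand (GRCh38.p14), and capitals mark the CCAAT box.
TUBA3E: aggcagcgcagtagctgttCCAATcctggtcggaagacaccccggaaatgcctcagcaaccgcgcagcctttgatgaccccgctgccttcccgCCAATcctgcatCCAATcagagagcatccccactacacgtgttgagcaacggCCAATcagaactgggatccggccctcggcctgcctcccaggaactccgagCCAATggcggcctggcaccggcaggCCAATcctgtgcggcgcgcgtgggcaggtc
The window held CCAAT 6 times, all on the sense strand, and 32.0% of the 35116 promoters of the table hold it at least once on either strand. The window held no GNACA followed after NNN by TGTNC, the letters used here for a palindromic glucocorticoid response element, searched on both strands, which 0.327% of all promoters hold. No match says only that these letters are not in this window.

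RRAD, a small GTPase of the RGK family that inhibits voltage-gated calcium channels, gave the same picture. It read 4.71, 4.65, 4.53 and 4.71 in siCCAR1 ethanol and 4.93, 5.09, 4.66 and 4.89 in siCCAR1 dex. It read 4.66, 4.29, 4.71 and 4.59 in siCCAR2 ethanol and 7.16, 7.76, 6.91 and 6.94 in siCCAR2 dex. Again only the siCCAR2 dex arrays were above 5.09, and the other groups overlapped. RRAD rose by 2.63 ± 0.16 (6.18-fold) in siCCAR2 cells (adjusted p = 1.23e-08), its siCCAR1 response was 0.24 ± 0.16 and not called, and the difference was −2.39 ± 0.23 (95% interval −2.87 to −1.91, adjusted p = 3.96e-05). A second RRAD probe gave a difference of −2.14. The siNS response was 1.52.

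CDH16, a cadherin first described in kidney epithelium, rose in both depletions but to different levels. It read 4.50, 4.54, 4.62 and 4.28 in siCCAR1 ethanol and 4.59, 5.29, 5.58 and 5.68 in siCCAR1 dex. It read 4.39, 4.50, 4.34 and 4.63 in siCCAR2 ethanol and 6.41, 6.91, 7.09 and 7.002 in siCCAR2 dex. Replicate 1 of siCCAR1 dex stayed at the ethanol level, and no siCCAR1 dex array reached the lowest siCCAR2 dex array. The rise was 0.80 ± 0.20 (1.74-fold, adjusted p = 0.0151) against 2.39 ± 0.20 (5.24-fold, adjusted p = 2.24e-07), and the difference of −1.59 ± 0.28 had an adjusted p of 0.0478. This call was lost without any 1 of 12 of the 16 arrays (adjusted p 0.0124 to 0.136 over the 16). It was kept without siCCAR1 dex replicate 1, 3 or 4, or without siCCAR2 dex replicate 1.

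The other 2 called genes differed between the depletions in ethanol, without dex. ARL14, an ARF-like small GTPase, read 4.36, 4.60, 5.01 and 4.56 in siCCAR1 ethanol and 4.42, 4.53, 4.56 and 4.60 in siCCAR1 dex. It read 5.75, 6.195, 5.83 and 6.23 in siCCAR2 ethanol and 4.35, 4.61, 4.55 and 4.44 in siCCAR2 dex. Only the siCCAR2 ethanol arrays were clearly above background. ARL14 fell by 1.51 ± 0.14 (2.86-fold) in siCCAR2 cells (adjusted p = 8.36e-07), its siCCAR1 response was −0.10 and not called, and the difference was 1.41 ± 0.20 (adjusted p = 0.00582). In ethanol the depletions differed by −1.37 (siCCAR1 minus siCCAR2, adjusted p = 3.85e-06), and in dex by 0.04 (adjusted p = 0.871).

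KCNV1, a potassium channel subunit that modifies the channels it joins, read 5.49, 5.46, 5.54 and 5.74 in siCCAR1 ethanol and 4.73, 4.78, 4.71 and 4.97 in siCCAR1 dex. It read 4.94, 4.38, 4.67 and 4.68 in siCCAR2 ethanol and 4.87, 5.201, 4.86 and 4.89 in siCCAR2 dex. The siCCAR1 ethanol arrays alone stood above the rest. KCNV1 fell by 0.76 ± 0.13 in siCCAR1 cells (adjusted p = 0.000614), responded by 0.29 ± 0.13 in siCCAR2 cells (not called), and differed by −1.05 ± 0.18 (adjusted p = 0.043). The call was lost without any 1 of 13 of the 16 arrays (adjusted p 0.0116 to 0.12 over the 16), the exceptions being siCCAR1 dex replicate 4, siCCAR2 ethanol replicate 1 and siCCAR2 dex replicate 1. All 5 called genes had at least 2 of 4 group means near background, and when every group mean had to exceed 5, limma called 0 of 8810 genes, with 450 at an unadjusted p under 0.05 and a smallest adjusted p of 0.267.

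**Figure D2:**
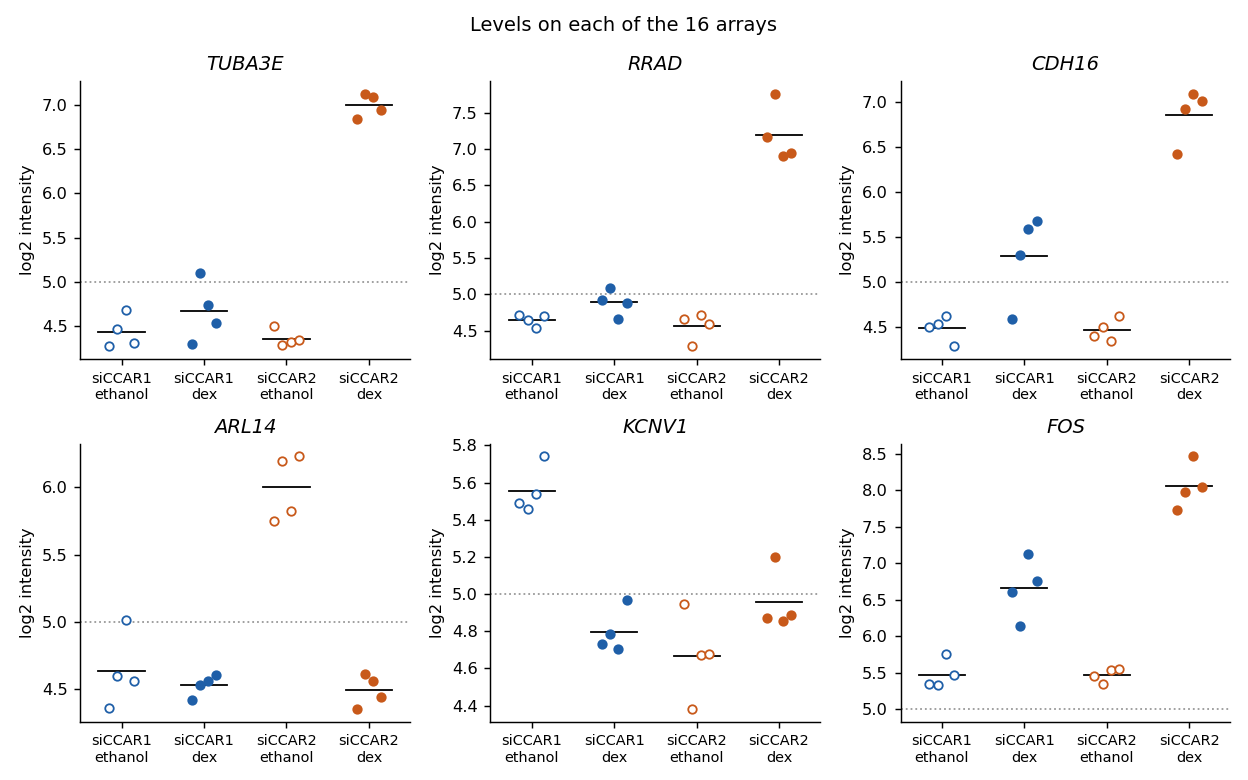
Log2 intensity of the 5 called genes and of FOS on each of the 16 arrays (open points ethanol, filled points dex, bars group means, dotted line the background level of 5). TUBA3E, RRAD and CDH16 are highest in siCCAR2 dex, ARL14 in siCCAR2 ethanol and KCNV1 in siCCAR1 ethanol, while FOS is above background in all 4 groups.

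The next 15 genes by p were not called (adjusted p 0.0615 to 0.109) and are given as values. Among the 20 genes of smallest p, 16 had a difference below 0 and 4 above. The pair responses of the 2 depletions, computed within replicate numbers, did not overlap for any of the 20, as follows from choosing the smallest p. Between the depletions, 15 of the 20 were called in dex and 6 in ethanol, against 26.3% and 24.2% of all genes. Of these, 14 were called in dex and not in ethanol, 5 in ethanol and not in dex, and 1 in both. Ranking by the difference in response favours such calls, so these counts are a description only. The dex response was called in siCCAR2 cells only for 12 of the 20 and in siCCAR1 cells only for 3, which the ranking also favours. Over all 10053 genes, 302 rises and 146 falls were called in siCCAR2 cells only. In siCCAR1 cells only, 109 rises and 157 falls were called. For 14 of the 20 at least 1 group mean was near background, while 8810 of 10053 genes remained when every group mean had to exceed 5.

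FOS, a subunit of the transcription factor AP-1, had the smallest p of those above background in all groups. It read 5.35, 5.33, 5.75 and 5.46 in siCCAR1 ethanol and 6.61, 6.14, 7.12 and 6.75 in siCCAR1 dex. It read 5.45, 5.35, 5.53 and 5.55 in siCCAR2 ethanol and 7.74, 7.98, 8.46 and 8.04 in siCCAR2 dex. The ethanol groups overlapped, and every siCCAR2 dex array was above every siCCAR1 dex array. FOS rose 2.27-fold in siCCAR1 and 6.00-fold in siCCAR2 cells (adjusted p = 0.000302 and 3.38e-08), and the difference of −1.40 ± 0.26 had an adjusted p of 0.0615, or 0.021 with replicates blocked within siRNA. The siNS response was 2.15.

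CDKN1C, the cyclin-dependent kinase inhibitor p57, read 4.72, 4.68, 4.64 and 4.74 in siCCAR1 ethanol and 6.02, 5.17, 5.66 and 5.85 in siCCAR1 dex. It read 4.64, 4.47, 4.79 and 4.81 in siCCAR2 ethanol and 6.53, 7.19, 6.73 and 7.03 in siCCAR2 dex. Dex raised it in both, by 0.98 and 2.19, the dex groups did not overlap, and the difference was −1.21 ± 0.24 (adjusted p = 0.0653). CXADR, a junction protein that viruses use as a receptor, rose by 0.69 and 1.39 from levels near 9 on the log2 scale (difference −0.70 ± 0.14, adjusted p = 0.088). EDN2, a vasoconstrictor peptide of the endothelin family, rose by 1.96 in siCCAR2 cells and responded by 0.34 in siCCAR1 cells (difference −1.63 ± 0.30, adjusted p = 0.0615). CRYAB, a small heat shock protein, and OTOF, a calcium sensor of vesicle fusion, rose by 1.29 and 1.31 in siCCAR2 cells against −0.03 and −0.01 in siCCAR1 cells. SFRP5, a secreted Wnt antagonist, rose by 1.09 in siCCAR2 cells against 0.27. EDN2, CRYAB, OTOF and SFRP5 were near background in the other 3 groups. SPRN, a relative of the prion protein gene, and OXCT2, a testis form of a ketone body enzyme, rose by 0.87 and 0.61 in siCCAR2 cells against −0.08 and −0.25 in siCCAR1 cells. OXCT2 was also near background in the other 3 groups. SPRN was higher in siCCAR1 cells in ethanol, by 0.79 (adjusted p = 0.000422), while in dex the depletions differed by −0.16 (adjusted p = 0.433). CABYR, a calcium-binding protein of sperm, fell by 0.51 in siCCAR1 cells, and its siCCAR2 response was above 0 at 0.35 and not called (difference −0.86 ± 0.18, adjusted p = 0.0933).

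In the opposite direction, SPDEF, an ETS factor of secretory epithelium, read 6.95, 6.88, 7.12 and 6.97 in siCCAR1 ethanol and 7.11, 7.13, 7.06 and 7.31 in siCCAR1 dex. It read 7.20, 6.92, 7.58 and 6.81 in siCCAR2 ethanol and 6.23, 6.30, 6.05 and 5.49 in siCCAR2 dex. The siCCAR2 dex arrays alone were low, SPDEF fell by 1.11 there (adjusted p = 0.000246), and the difference was 1.28 ± 0.25 (adjusted p = 0.0617). NR4A2, an orphan nuclear receptor and immediate early gene, fell by 1.76 in siCCAR2 cells from an ethanol level 1.54 above that of siCCAR1 cells, where its response was −0.56. Its difference was 1.20 ± 0.26 (adjusted p = 0.109). ZDBF2, an imprinted zinc finger gene, fell by 0.56 in siCCAR2 cells, and its siCCAR1 response was above 0 at 0.42 and not called (difference 0.97 ± 0.19, adjusted p = 0.0617). Its group means were near background except in siCCAR2 ethanol (5.19). ARHGEF3, unlike these genes, had a difference below 0 (−0.76 ± 0.16, adjusted p = 0.092). It fell by 0.95 in siCCAR1 cells against −0.19 in siCCAR2 cells, and was higher in siCCAR1 cells in both treatments (1.23 in ethanol and 0.47 in dex).

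**Figure D3:**
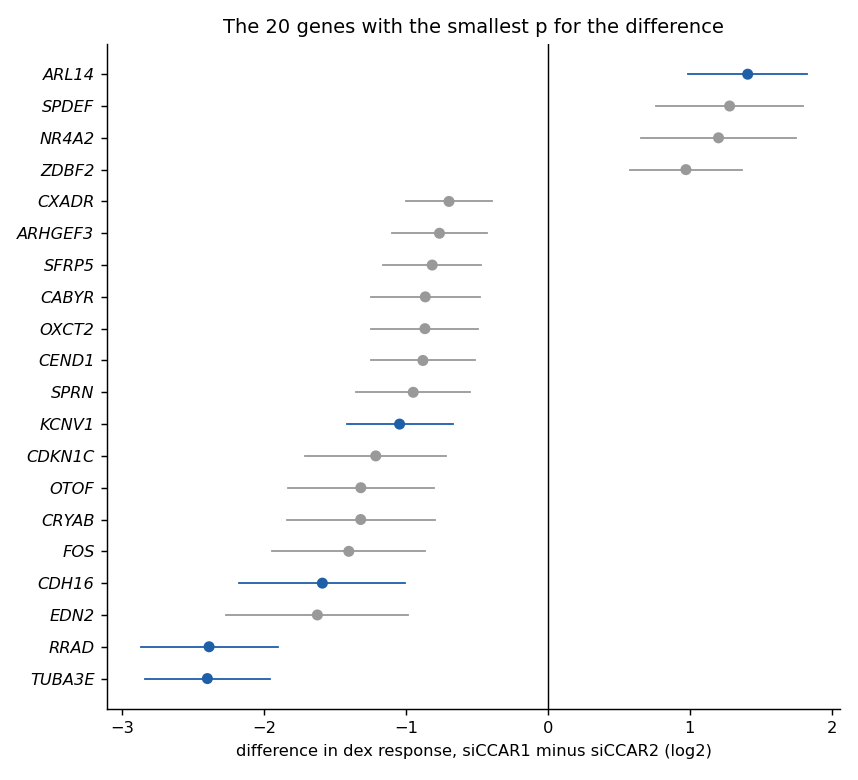
Difference in dex response (siCCAR1 minus siCCAR2, log2, x axis) with its 95% interval for the 20 genes of smallest p (y axis); blue marks the 5 called genes and grey the 15 not called. TUBA3E and RRAD lie furthest below 0, and 4 genes, ARL14, SPDEF, NR4A2 and ZDBF2, lie above 0.

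The size of the whole response was described over genes changed at least 2-fold by dex in siNS cells with an adjusted p under 0.05. At any size 16.9% of genes were called in siNS cells, 7.85% as raised and 9.09% as lowered. The siNS arrays are outside the comparison, but the choice is not fully so. Genes first had to pass the intensity filter on the 4 compared groups, and the spread came from all 40 arrays. TUBA3E and RRAD passed that filter through siCCAR2 dex alone. The 178 raised genes had a median response of 1.44 in siNS, 1.26 in siCCAR1 and 1.45 in siCCAR2 cells. The median of their differences was −0.247, against −0.0319 over all 10053 genes. The response was smaller in siCCAR1 cells for 125 of the 178 (70.2%), where 55.8% of all genes had a difference below 0. By replicate number the median response was 1.18, 1.25, 1.29 and 1.29 in siCCAR1 cells and 1.33, 1.43, 1.63 and 1.5 in siCCAR2 cells. The 2 sets of 4 medians did not overlap.

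Of the 178 raised genes, 160 rose in siCCAR1 and 169 in siCCAR2 cells, 155 in both, 14 in siCCAR2 only and 5 in siCCAR1 only. Over all 10053 genes 4.25% rose in siCCAR1 and 6.18% in siCCAR2 cells: 318 in both, 302 in siCCAR2 only and 109 in siCCAR1 only. TUBA3E, RRAD and CDH16 were the 3 of the 178 whose difference was called, against 5 of all 10053 genes (0.0497%). As TUBA3E and RRAD passed the intensity filter through siCCAR2 dex alone, this count is a description only. The 95% interval of the difference lay within −1 to 1 for 112 of the 178, against 8970 of all 10053 genes. In dex, 65 of the 178 were lower and 18 higher in siCCAR1 than in siCCAR2 cells, against 13.2% and 13.1% of all genes. In ethanol, 32 were lower and 21 higher, against 10.4% and 13.8%. For the 63 genes that dex lowered in siNS, the medians were −1.21 in siNS, −0.965 in siCCAR1 and −1.08 in siCCAR2 cells. The fall was smaller in siCCAR1 cells, a difference above 0, for 33 of the 63 (52.4%), where 55.8% of all genes had a difference below 0. The median difference was 0.00684, against −0.0319 over all genes, and no difference was called. By replicate number the medians ran from −1.08 to −0.975 in siCCAR1 and from −1.09 to −1.01 in siCCAR2 cells, and overlapped.

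**Figure D4:**
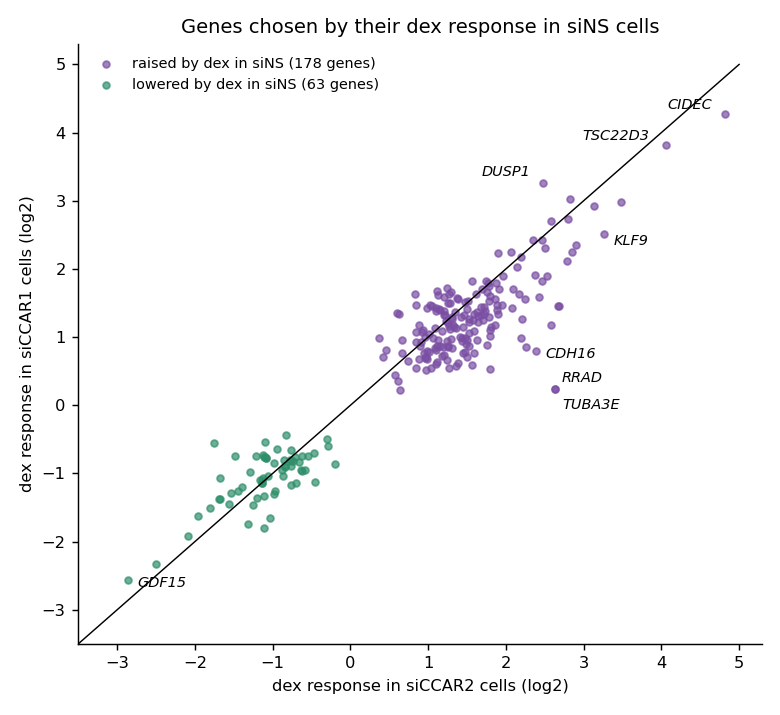
Dex response in siCCAR1 cells (y axis, log2) against siCCAR2 cells (x axis, log2) for the 178 genes raised and the 63 lowered at least 2-fold in siNS cells; the line marks equal responses. Most raised genes lie a little below the line, RRAD and TUBA3E lie furthest below it, and DUSP1 lies above it.

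Several responses were alike to within the error. RGCC, a regulator of the cell cycle, read 7.62, 7.31, 7.62 and 7.501 in siCCAR1 ethanol and 9.01, 8.96, 9.34 and 9.24 in siCCAR1 dex. It read 7.21, 7.28, 8.29 and 7.27 in siCCAR2 ethanol and 8.85, 8.92, 9.57 and 9.19 in siCCAR2 dex. It rose by 1.62 in both, and the 95% interval of the difference was −0.62 to 0.63. GTF2IRD1, a transcription factor related to TFII-I, rose by 1.24 and 1.23 (interval −0.60 to 0.62), and NBL1, a secreted BMP antagonist, by 1.29 and 1.30 (interval −0.47 to 0.45). Among lowered genes CBR3, a carbonyl reductase, fell by 1.14 in both (interval −0.49 to 0.49), F2RL2, the receptor PAR3, by 1.13 and 1.14, and LONRF2 by 1.03 and 1.06. These 6 were chosen for the smallest measured difference and are a description with no test.

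The list of 41 tested GR-induced genes carried 36 rises in siCCAR1 and 38 in siCCAR2 cells and no fall, against 4.25% and 6.18% of all genes that rose. Its median response was 1.32 and 1.41, and 1.55 in siNS. Differences were below 0 for 28 of the 41, against 55.8% of all genes, with a median of −0.196, against −0.0319 over all genes. None was called, where 0.0497% of all genes were, a share that applies to each list below. The lipid droplet gene CIDEC rose most, by 4.27 and 4.81, followed by TSC22D3, which encodes the anti-inflammatory leucine zipper GILZ, by 3.81 and 4.05 (difference −0.24, 95% interval −0.79 to 0.31). The transcription factor KLF9 rose by 2.51 and 3.26 (interval of the difference −1.65 to 0.14), and SYBU, a kinesin adaptor, by 2.98 and 3.48. SGK1, a kinase that promotes sodium uptake, rose by 2.25 and 2.06, and ZFP36, which promotes decay of cytokine mRNA, by 1.80 and 1.87.

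FOXO1, a transcription factor of fasting metabolism, read 5.49, 5.62, 5.67 and 5.49 in siCCAR1 ethanol and 5.38, 5.91, 5.87 and 5.82 in siCCAR1 dex. It read 5.36, 5.8, 5.65 and 5.58 in siCCAR2 ethanol and 6.66, 6.74, 7.01 and 6.36 in siCCAR2 dex. The siCCAR2 dex arrays lay above the other 12, which overlapped. FOXO1 rose by 1.09 ± 0.15 in siCCAR2 cells (adjusted p = 5.05e-05), against 0.18 ± 0.15 in siCCAR1 cells (not called). Its difference was −0.91 ± 0.21 (adjusted p = 0.152). GADD45A, a growth arrest and DNA damage gene, rose by 0.62 and 1.39 (difference −0.77 ± 0.18, adjusted p = 0.163), from an ethanol level 0.57 higher in siCCAR1 cells, and in dex the depletions differed by −0.20 (adjusted p = 0.261).

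DUSP1, a phosphatase that turns off MAP kinases, went the other way. It read 8.60, 9.16, 8.62 and 8.65 in siCCAR1 ethanol and 11.86, 12.07, 12.14 and 12 in siCCAR1 dex. It read 10.01, 10.62, 10.11 and 10.12 in siCCAR2 ethanol and 12.62, 12.87, 12.64 and 12.65 in siCCAR2 dex. No 2 groups overlapped. DUSP1 rose 9.59-fold in siCCAR1 and 5.58-fold in siCCAR2 cells, and the difference of 0.78 ± 0.21 had an adjusted p of 0.34. It was lower in siCCAR1 cells in ethanol by −1.46 and in dex by −0.68 (adjusted p = 3.39e-06 and 0.00257), so the larger fold went with the lower starting level.

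The promoters of FOS and DUSP1 are shown together because both genes rose with dex in both depletions while their measured differences had opposite signs. Capitals mark TGACGT, the core of the cAMP response element, on either strand. The FOS window is chr14:75278578-75278827 on the plus strand and the DUSP1 window is chr5:172771196-172771445 on the minus strand, each the 250 bases before the RefSeq start (GRCh38.p14).
FOS: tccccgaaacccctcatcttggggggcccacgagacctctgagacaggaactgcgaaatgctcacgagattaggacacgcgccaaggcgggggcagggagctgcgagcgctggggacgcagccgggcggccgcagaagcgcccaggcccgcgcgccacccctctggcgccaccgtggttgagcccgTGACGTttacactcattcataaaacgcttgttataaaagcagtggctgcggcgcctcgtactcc
DUSP1: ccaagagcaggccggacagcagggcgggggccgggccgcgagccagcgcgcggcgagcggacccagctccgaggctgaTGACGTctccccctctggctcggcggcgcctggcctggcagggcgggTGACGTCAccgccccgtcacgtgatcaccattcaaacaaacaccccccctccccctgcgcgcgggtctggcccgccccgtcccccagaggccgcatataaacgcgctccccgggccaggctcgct
FOS held TGACGT once. DUSP1 held 3 matches, 2 on the sense strand and 1 on the other, of which 2 overlap in the palindrome. Of all 35116 promoters, 7.10% hold TGACGT, and both windows hold TATAAA, which 10.7% of promoters hold on either strand. Neither holds the letters searched for the glucocorticoid response element.

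Metallothioneins, small cysteine-rich proteins that bind zinc and copper, rose in both depletions. Of 9 tested genes of the metallothionein and zinc list, 6 rose in each, against 4.25% of all genes in siCCAR1 and 6.18% in siCCAR2 cells. All 6 were metallothioneins, while the zinc sensor MTF1 and the transporters SLC30A1 and SLC39A10 were not called. MT1X read 9.79, 9.33, 10.22 and 9.87 in siCCAR1 ethanol and 11.99, 11.54, 12.67 and 12.03 in siCCAR1 dex. It read 10.01, 9.51, 10.83 and 10.32 in siCCAR2 ethanol and 12.82, 12.72, 13.30 and 13.20 in siCCAR2 dex. The ethanol groups overlapped and the dex groups did not. Its rises of 2.25 and 2.85 differed by −0.59 ± 0.38 (adjusted p = 0.949). MT1H rose by 1.46 and 2.68 (difference −1.22 ± 0.43, adjusted p = 0.554), MT1G by 1.90 and 2.52, and MT2A by 2.43 and 2.35. The median difference of the 9 was −0.167 and none was called. In dex 6 of the 9 were lower in siCCAR1 cells and in ethanol 2, against 13.2% and 10.4% of all genes. Metallothionein transcripts are near copies of each other, so single members are uncertain.

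Among 18 immediate early genes, 5 rose and 2 fell in siCCAR1 cells, and 5 rose and 5 fell in siCCAR2 cells. The shares of all genes were 4.25% and 3.26% in siCCAR1, and 6.18% and 3.14% in siCCAR2 cells. The median difference was 0.0442 and none was called. Besides FOS, KLF4 rose by 0.60 and 1.28, KLF6 by 1.27 and 1.53 and JUNB, an AP-1 subunit, by 0.62 and 0.79. JUN, the partner of FOS in AP-1, fell by 1.44 and 1.57, and IER3, a stress-inducible survival gene, by 1.63 and 1.97. IER2, IER5 and NR4A2 fell in siCCAR2 cells and were not called in siCCAR1 cells. Of 16 feedback inhibitors of MAP kinase signalling, 3 rose in both depletions (DUSP1, ERRFI1 and SPRY2), 2 fell in siCCAR1 cells and 1 in siCCAR2 cells, against the same shares of all genes. ERRFI1, an inhibitor of the EGF receptor, rose by 1.5 and 1.26. SPRY2, an inhibitor of receptor tyrosine kinase signalling, rose by 0.68 and 0.34. No difference of the 16 was called.

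Of 20 inflammatory genes tested, 6 fell in siCCAR1 and 9 in siCCAR2 cells, against 3.26% and 3.14% of all genes. The other members did not pass the test, none rose, and the medians were −0.465 and −0.552. The prostaglandin synthase gene PTGS2 fell by 1.36 and 1.20, and the chemokine genes CXCL8 by 1.02 and 1.20 and CCL2 by 1.15 and 1.24. IL6 fell by 1.20 in siCCAR2 cells against −0.44 in siCCAR1 cells (difference 0.76 ± 0.35, adjusted p = 0.794), and CXCL1 by 1.07 against −0.49 (difference 0.58 ± 0.31, adjusted p = 0.893). The IL6 means were 5.05 in siCCAR1 ethanol and 6.14 in siCCAR2 ethanol, and near background in dex (4.615 and 4.94), which limits both folds. The starting levels differed: in ethanol 15 of the 20 were lower in siCCAR1 cells, and in dex 14, against 10.4% and 13.2% of all genes.

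Among 18 acute phase and IL6 signalling genes, 4 rose and 1 fell in siCCAR1 cells, and 6 rose and 2 fell in siCCAR2 cells. Over all genes 4.25% rose and 3.26% fell in siCCAR1 cells, and 6.18% and 3.14% in siCCAR2 cells. SERPINA3, an acute phase protease inhibitor, rose by 1.27 and 2.20, and SAA1, serum amyloid A, by 0.88 and 1.76. FGA, the fibrinogen alpha chain, rose by 1.09 in siCCAR2 cells against 0.41 in siCCAR1 cells (difference −0.68 ± 0.18, adjusted p = 0.325). IL6ST, the shared receptor gp130, rose by 0.60 against 0.11 (difference −0.49 ± 0.14, adjusted p = 0.375). A fainter IL6ST probe gave a difference of −0.51. The faintest, with a highest group mean of 5.23, gave 0.48, the opposite direction. Of 18 NRF2 targets, genes of the oxidative stress response, 7 fell in siCCAR1 and 8 in siCCAR2 cells, against 3.26% and 3.14% of all genes, and none rose. GCLM fell by 1.10 and 1.14 and HMOX1, heme oxygenase, by 1.06 and 1.67 (difference 0.61 ± 0.32, adjusted p = 0.893).

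**Figure D5:**
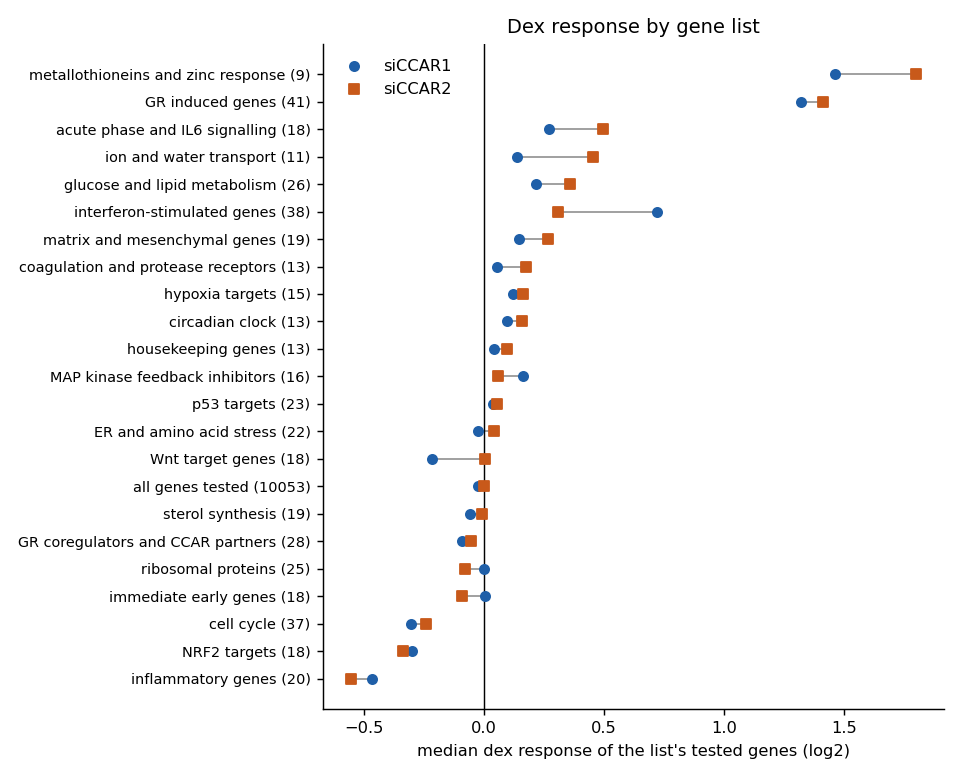
Median dex response (log2, x axis) in siCCAR1 cells (circles) and siCCAR2 cells (squares) of each of 22 gene lists and of all genes tested (y axis, number of tested genes in brackets). GR-induced genes and metallothioneins lie highest, inflammatory genes lowest, and the interferon-stimulated genes have the widest gap with siCCAR1 above siCCAR2.

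Interferon-stimulated genes, which antiviral signalling raises, had the list median furthest from 0 for the difference, 0.555 over 38 tested genes. Of their differences 3 were below 0, against 55.8% of all genes. No member was called for the difference in the fit without a block (smallest adjusted p 0.893). With dex 1 member, EPSTI1, rose in both depletions (1.37 and 1.34), where 4.25% of all genes rose in siCCAR1 and 6.18% in siCCAR2 cells. The median level of the list by array was 7.23, 8.28, 7.60 and 7.19 in siCCAR1 ethanol and 7.80, 9.33, 8.06 and 7.54 in siCCAR1 dex. It was 9.0, 10.6, 9.68 and 8.86 in siCCAR2 ethanol and 9.05, 10.4, 9.57 and 9.01 in siCCAR2 dex. Replicate 2 was highest in all 4 groups, and the spread between replicates within a group was larger than the change with dex. The median difference was 0.263 without siCCAR1 dex replicate 2, 0.287 without siCCAR2 ethanol replicate 2 and 0.225 with array quality weights. Pair responses of IFIT1 ran from 0.308 to 1.071 in siCCAR1 cells and from −0.391 to −0.137 in siCCAR2 cells. Those of IFIT2, a related antiviral gene, ran from 0.156 to 0.834 and from −0.940 to −0.332, and the depletions did not overlap for either gene. With replicates blocked within siRNA the adjusted p was 0.0777 for IFIT1 (difference 0.98) and 0.0604 for IFIT2 (difference 1.17). With the replicate number as 1 block across both siRNAs it was 0.051 and 0.027, so IFIT2 was called in that fit. In ethanol 31 of the 38 were lower in siCCAR1 cells (median −1.62) and in dex 18 (median −1.06), against 10.4% and 13.2% of all genes. IFIT1, an inhibitor of viral translation, ran from 10.24 to 12.23 in siCCAR1 ethanol and from 12.09 to 13.34 in siCCAR2 ethanol, and from 6.73 to 8.75 in siNS ethanol. The part of this list's level in other differences was not tested.

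Counts for lists of other processes are to be read against all genes. Of all genes, 4.25% rose and 3.26% fell in siCCAR1 cells, and 6.18% and 3.14% in siCCAR2 cells. Of 37 cell cycle genes, 1 rose and 3 fell in siCCAR1 cells, and 1 rose and 2 fell in siCCAR2 cells. CCND1, cyclin D1, rose by 0.57 and 0.86. Of 23 p53 targets, 3 rose and 2 fell in siCCAR1 cells and 2 rose and 2 fell in siCCAR2 cells. GDF15, a stress cytokine on that list, read 11.09, 10.42, 10.60 and 10.51 in siCCAR1 ethanol and 8.33, 7.99, 8.29 and 7.79 in siCCAR1 dex. It read 11.50, 11.05, 11.35 and 10.80 in siCCAR2 ethanol and 8.99, 7.69, 8.51 and 8.07 in siCCAR2 dex. Ethanol and dex arrays did not overlap in either depletion, while the depletions did. GDF15 fell by 2.56 and 2.86, and the difference was 0.30 (95% interval −0.40 to 1.01).

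Of 18 Wnt target genes, 1 rose and 6 fell in siCCAR1 cells and 4 rose and 3 fell in siCCAR2 cells, with a median difference of −0.241. For this list and the next, the shares of all genes were 4.25% and 3.26% in siCCAR1, and 6.18% and 3.14% in siCCAR2 cells. NKD2, a Wnt antagonist, rose by 0.74 in siCCAR2 cells against −0.04 in siCCAR1 cells (difference −0.79 ± 0.18, adjusted p = 0.158), and SOX4, a developmental transcription factor, fell by 1.11 and 0.71. Of 28 GR coregulators and CCAR partners, 1 rose and 1 fell in siCCAR1 cells and 2 rose and 2 fell in siCCAR2 cells. PPARG, a nuclear receptor of lipid metabolism, rose by 0.58 and 0.53, and MED24, a Mediator subunit, had the most negative difference at −0.60 ± 0.20 (adjusted p = 0.488). None of 25 ribosomal protein genes and none of 13 housekeeping genes was called for dex in either depletion, and their median differences were 0.0912 and 0.00687.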

How the data were processed

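Total RNA of A549 cells was measured on Illumina bead arrays. The values used are the log2 intensities of the series matrix that the authors deposited, already normalized between arrays: array medians of the 16 arrays lay between 4.67 and 4.69 and values between 4.13 and 14.3. Per the submitters' processing notes limma 3.14.4 was used, and the background correction and other steps are not given in the sources used here. The non-normalized table, with 80 columns of per-sample values named by chip position, could not be tied to samples and was not used.

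Of 34469 probes, 26360 had 1 gene symbol in the platform annotation, 3 had several and 8106 were not listed. Probes with a mean above 5 in at least 1 of the 4 groups were kept (13084), and each of 10053 genes was represented by its brightest kept probe (2490 genes had more than 1). A mean per group was fitted to the 16 arrays with lmFit and eBayes (limma 3.58.1, R 4.3.3), and p-values were adjusted by the Benjamini-Hochberg method over all genes, with a threshold of 0.05. Both dex responses, the difference between depletions in each treatment and the difference in response came from this fit. The procedure was tested on simulated data. The siNS response, used to choose genes, came from a fit of all 40 arrays. Medians and counts over gene lists carry no test.

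The groups share replicate numbers. Deviations from the group means correlated between ethanol and dex arrays of the same number and siRNA with r of 0.162 to 0.483 in all 8 pairs, each above that with any other number, so the numbers pair arrays within an siRNA. Between siRNAs, within a treatment, the values for the same number were 0.0903 to 0.348, each also above that with any other number. The numbers thus went together across siRNAs too, and the main fit used neither pairing. Fits with blocks, weights, other filters and arrays left out were run as alternatives.

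Genes named were the 20 of smallest p, CCAR1, CCAR2 and NR3C1, for each list at most 4 called members and 3 that were not, the largest rises and falls, genes called in opposite directions, and the 3 least different genes in each direction. Further list members, TUBA3C, TUBA3D and PDGFA were named after their values were seen. The members and lists were chosen with earlier results of these data known. Promoter sequences are from RefSeq.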

Additional observations from a re-analysis of the deposited data

Results flagged for a closer look

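The difference in response was called for 5 genes: TUBA3E (−2.40), RRAD (−2.39), ARL14 (1.41), KCNV1 (−1.05) and CDH16 (−1.59), with the values described above.

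In 296 groups of 4 arrays, over 74 named genes, 19 (6.42%) held an array far from the other 3 by Dixon's criterion, 11 high and 8 low. Chance alone flags about 1 in 20 groups. Replicate 2 of siCCAR1 dex and replicate 2 of siCCAR2 ethanol each held 3.

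For genes discussed above, NR4A2 read 8.15 on siCCAR2 ethanol replicate 2, where the other 3 arrays read 7.13 to 7.26. KCNV1 read 5.201 on siCCAR2 dex replicate 2, against 4.86 to 4.89. DUSP1 read 9.16 on siCCAR1 ethanol replicate 2 against 8.60 to 8.65, and 12.87 on siCCAR2 dex replicate 2 against 12.62 to 12.65. FOXO1 read 5.38 on siCCAR1 dex replicate 1, against 5.82 to 5.91, and OXCT2 read 4.42 on siCCAR1 ethanol replicate 2, against 4.77 to 4.83. CIDEC read 4.73 on siCCAR2 ethanol replicate 2, against 5.45 to 5.58. RGCC read 8.29 on siCCAR2 ethanol replicate 3, against 7.21 to 7.28. MT1H read 7.59 on siCCAR1 dex replicate 3, against 6.39 to 6.52.

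Among the remaining genes on siCCAR1 dex, FGA read 9.03 on replicate 1 (others 9.25 to 9.29), and on replicate 2 RRM2B read 7.26 (7.72 to 7.77), PARP9 10.17 (9.49 to 9.54) and NBL1 8.60 (8.93 to 8.99). On replicate 3 MMP9 read 4.81 (4.43 to 4.45), and on replicate 4 PLK2 read 6.31 (6.87 to 6.95) and PRR15L 8.90 (8.06 to 8.18). DUSP8 read 6.58 on siCCAR2 ethanol replicate 2 (5.17 to 5.41). SLC7A11 read 7.99 on siCCAR1 ethanol replicate 1 (8.056 to 8.063) and 6.33 on siCCAR2 dex replicate 1 (5.86 to 5.93).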

How the results depend on the processing

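The count of genes called for the difference depended most on the processing. Against 5, it was 20 (0.199%) with all 40 arrays, 18 with the replicate block across siRNAs, 29 with a random block, 14 with the mean of kept probes, 13 with array weights and 0 when every group mean exceeded 5 (limma; 450 genes there at an unadjusted p under 0.05). With replicates blocked within siRNA it was 6. Leaving out 1 array gave 3 to 15, the 15 without siCCAR2 dex replicate 1 and the 3 without any of the 8 arrays named above. The cause was not tested.

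TUBA3E (−2.54 to −2.28), RRAD (−2.48 to −2.20) and ARL14 (1.32 to 1.54) stayed called without any 1 array. Calls for the dex response in siCCAR1 numbered 755, 1141 with a random block, 1365 with array weights and 578 to 828 with 1 array left out. For the dex response in siCCAR2 they numbered 937, 1374 with a random block, 780 with array weights and 770 to 947 with 1 array left out.

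For genes raised in siNS the median response in siCCAR1 cells was 1.32 with a background level of 6, 1.33 with all group means above 5, 1.18 with the mean of probes, 0.778 for genes chosen at 1.5-fold and 1.22 to 1.28 with 1 array left out. In siCCAR2 cells it was 0.945 at 1.5-fold and 1.40 to 1.56. The median difference ran from −0.283 to −0.196 with 1 array left out, and from −0.249 to −0.157 (genes chosen at 1.5-fold) under the other settings. For lowered genes it was −0.596 at 1.5-fold, −1.13 for genes chosen on siCoCoA arrays and −1.03 to −0.928 in siCCAR1 cells. In siCCAR2 cells it was −0.534, −1.14, −1.03 with weights and −1.08 to −0.962. The median difference was 0.103 for the siCoCoA choice and −0.0509 to 0.0442 with 1 array left out.

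Of 1815 combinations of 66 named genes and settings, 1712 kept side and sign, 71 gained and 32 lost the call, and 0 reversed. Signal near background limits every fold of the 5 called genes.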

Other observations

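Smaller lists not described above carried no called difference. Their counts are to be read against all genes, of which 4.25% rose and 3.26% fell in siCCAR1 cells, and 6.18% and 3.14% in siCCAR2 cells. Of 13 clock genes, 4 rose in each depletion and none fell. PER2, a repressor of the clock, rose by 0.91 and 1.11, and CRY2, its partner, by 1.47 and 1.02. Of 26 genes of glucose and lipid metabolism, 8 rose and 1 fell in siCCAR1 cells, and 10 rose and 1 fell in siCCAR2 cells. ANGPTL4, an inhibitor of lipoprotein lipase, rose by 2.93 and 3.13, and ACSL1, which activates fatty acids, by 2.74 and 2.80. Of 11 ion and water transport genes, 4 rose and 1 fell in siCCAR1 cells, and 5 rose and 2 fell in siCCAR2 cells.

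Of 19 sterol synthesis genes, HMGCS1 was the 1 member called, with rises of 0.77 and 0.80. Of 15 hypoxia targets, 1 rose in siCCAR1 and 3 in siCCAR2 cells, and 1 fell in each. NDRG1 rose by 1.33 and 1.20, and ENO2, a glycolytic enolase, fell by 0.82 and 0.75. Of 22 genes of ER and amino acid stress, 1 rose in siCCAR1 cells and 1 fell in siCCAR2 cells. Of 19 matrix and mesenchymal genes, 3 rose in each depletion and 1 fell in siCCAR1 cells, 15 differences were below 0 (55.8% of all genes) with a median of −0.282, and 11 were lower in siCCAR1 cells in dex against 7 in ethanol (13.2% and 10.4% of all genes). CDH1, the epithelial cadherin, rose by 0.43 and 0.86, and ITGB4, an integrin of hemidesmosomes, by 0.76 and 1.09. Of 13 coagulation genes, 1 rose and 1 fell in siCCAR1 cells and 2 rose and 2 fell in siCCAR2 cells, with THBD, the thrombin receptor thrombomodulin, up by 1.82 and 2.46. The shares of all genes for the dex calls of these lists were again 4.25% and 3.26% in siCCAR1, and 6.18% and 3.14% in siCCAR2 cells.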
